A study of Arabidopsis thaliana with 15 samples.

Results

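In the shoot apex of Arabidopsis thaliana, 76 of 22746 probe sets (0.334%) had their highest sorted-cell signal in CLV3n cells, by a factor of 2 or more over each of 3 other sorted populations. A probe set is the group of array probes that reads 1 transcript, and its signal is a brightness summarised by the MAS5 method on a linear scale. The members were chosen on these arrays: signals under 20 were raised to 20, the geometric mean was taken per group, and a probe set was kept if its CLV3n mean was at least 2 times the CLV3p, FILp and WUSp means and every CLV3n array read 100 or more. Of the 76 members, 39 are paired with 1 gene in the probe annotation, 1 with several genes and 36 with none.

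The 15 arrays held 3 of CLV3n cells, 3 of CLV3p cells, 3 of FILp cells, 2 of WUSp cells, 2 labelled Protoplast Induced and 2 labelled Uninduced. A plant age of 24 days is recorded for all 15 arrays, and the labels give no genotype, line, marker construct or dissected tissue for any group. The design text states that CLV3n lacks the CLV3p cell type, so CLV3n is a remainder that can hold many kinds of cell. Protoplast_induced and Uninduced are read here as unsorted material after and without protoplast preparation, the removal of cell walls that precedes sorting. Nothing says whether replicates came from separate plants or sorts, so that spreads and p-values cover these arrays, whose spread may be technical.

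The shoot apical meristem keeps stem cells at its tip and forms organs on its flanks. CLV3 encodes a peptide made by the stem cells, WUS a homeodomain protein made in the organizing cells beneath them, and FIL a YABBY protein made on the outer side of young organs. An apex also holds cells outside these domains, among them organ boundaries, the first vascular strands, stem tissue below the meristem and older floral tissue.

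CLV3 itself read 12.2, 9.27 and 6.73 on the CLV3n arrays, against 569, 1220.4 and 968 on the CLV3p arrays. This fits the names of those 2 sorts. No probe set is paired with WUS or FIL alone, so the other sorts could not be checked by their own gene. Median signals of the arrays ran from 155 to 199. Batches were inferred here from the hybridisation control bioC, divided at a signal of 500, and not taken from the labels. The arrays fell into a low batch, with bioC signals of 281 to 349, and a high batch, with 745 to 1203. The low batch held all FILp arrays with CLV3n 3 and CLV3p 3, and the high batch held the rest. The actin 3'/5' log2 ratio, a sign of RNA quality or labelling length, was 4.203 on CLV3n 1 and 3.78 on CLV3p 1, against 2.14 to 3.43 elsewhere.

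Across the 76 members, the median of the group means was 239 in CLV3n cells, against 52.7 in CLV3p, 60.9 in FILp and 62.2 in WUSp cells. The same medians over all probe sets were 181, 161, 170.5 and 164. The ratio of the CLV3n mean to the highest of the other 3 ran from 2.01 to 19.8 with a median of 2.62, and 25 members reached 3, 13 reached 4 and 5 reached 8. The median SD of the log2 signal was 0.34 in CLV3n, 0.54 in CLV3p, 0.32 in FILp and 0.45 in WUSp cells. These ratios chose the members and are given without a test. In bulk samples, a larger number of cells of a type and more RNA per cell cannot be told apart.

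**Figure D1:**
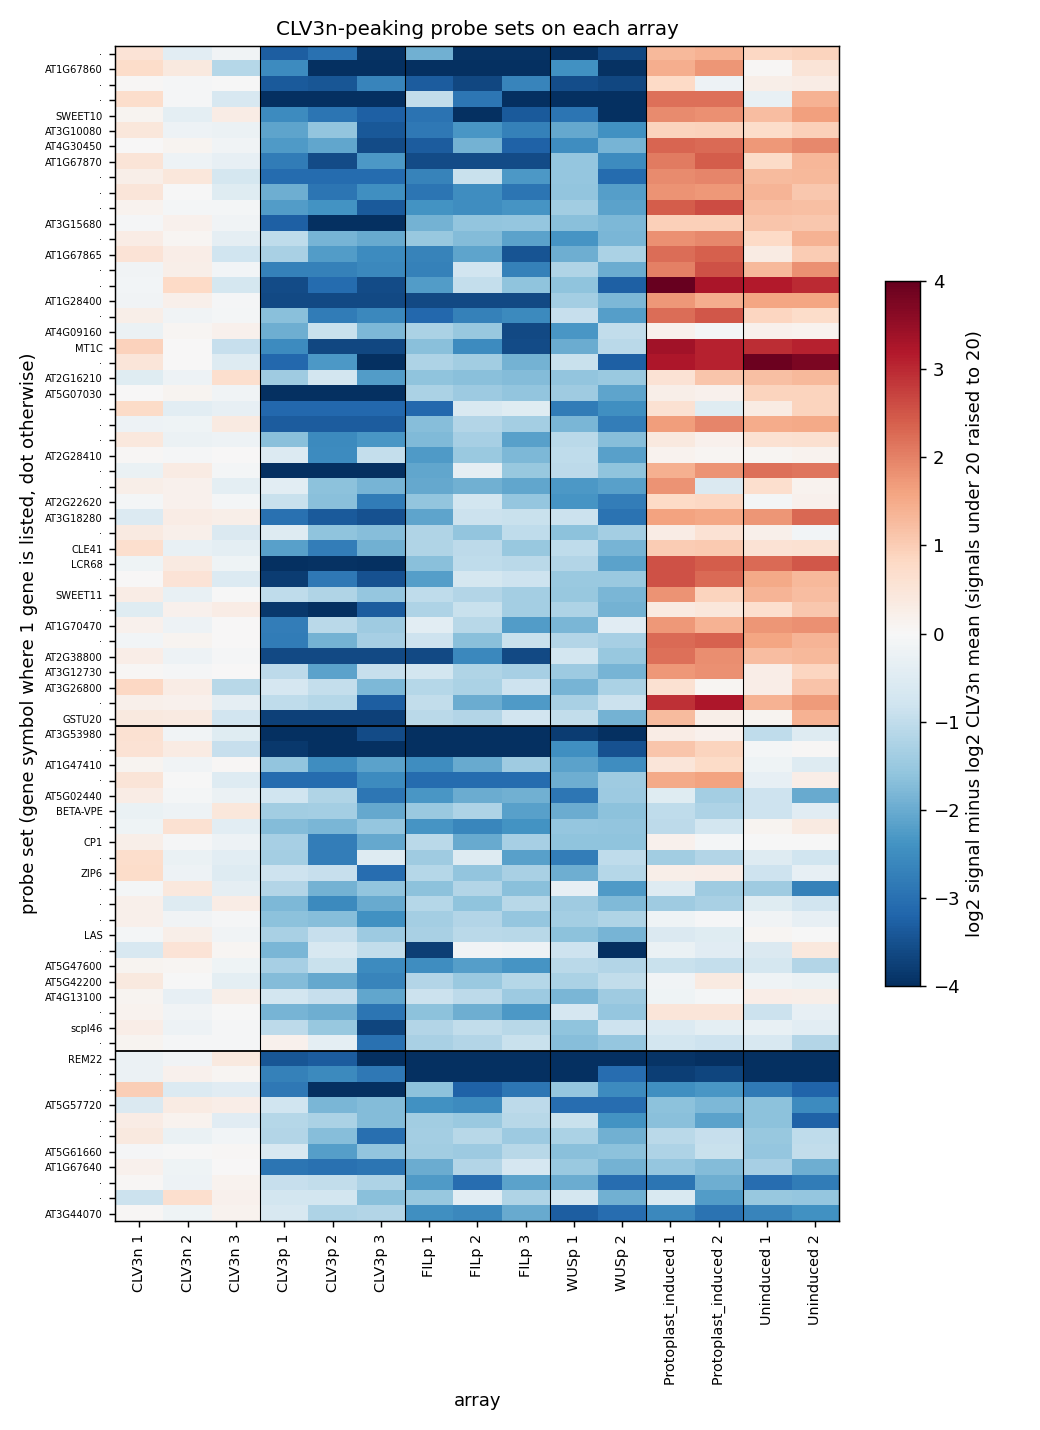
Colour gives the log2 signal of each member (rows) on each of the 15 arrays (columns) minus the member's mean log2 CLV3n signal, with signals under 20 raised to 20 and colours ending at 4 either way. Horizontal lines divide the 44 members with both unsorted means at or above the CLV3n mean (top), 21 between, and 11 with both at 0.5 times it or less (bottom); the 8 columns of CLV3p, FILp and WUSp are blue almost throughout, while the 4 unsorted columns are red at the top and blue at the bottom.

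On single arrays, 70 of the 76 members had every CLV3n array above all 8 arrays of CLV3p, FILp and WUSp, against 2.11% of the 12540 probe sets with every CLV3n array at 100 or more; the rule used these values. The highest CLV3n array was CLV3n 1 for 44 members, CLV3n 2 for 20 and CLV3n 3 for 12. Over the 12540 probe sets those shares were 34.6%, 29.2% and 36.3%. CLV3n 1 is also the array with the highest actin ratio, and whether RNA quality or labelling length shaped its values was not tested. Without CLV3n 1 and CLV3p 1, an alternative added after seeing the data, the rule kept 85 probe sets, of which 68 were members. Leaving out 1 CLV3n array at a time, 78 probe sets passed without CLV3n 1 (67 members), 109 without CLV3n 2 (70) and 132 without CLV3n 3 (73). The count thus moved most without CLV3n 3, while the fewest members were kept without CLV3n 1. An array left out also no longer counts towards the signal minimum, which lets more probe sets pass.

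Sugar transporters included the fourth largest ratio among members with 1 gene. SWEET proteins move sugars across membranes, and SWEET11 is known for sucrose export towards the phloem in leaves. SWEET10 (AT5G50790) read 479, 339 and 544 in CLV3n cells, against 78.3, 58.7 and 45.9 in CLV3p, 57.8, 24.9 and 43.5 in FILp, and 58.4 and 8.20 in WUSp cells. All 3 CLV3n arrays stood apart, and the CLV3n mean was 7.49 times the CLV3p mean, the highest of the others. In unsorted material SWEET10 was higher still, at 1650.2 and 1587 in Protoplast_induced and 1039 and 1387 in Uninduced.

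SWEET11 (AT3G48740) read 191, 126 and 153 in CLV3n cells, against 75.9, 67.6 and 52.3 in CLV3p, 75.8, 67.9 and 60.01 in FILp, and 53.7 and 43.7 in WUSp cells. Its ratio of 2.29 was near the lower quartile of the members, 2.27. Protoplast_induced read 532 and 286 and Uninduced 398 and 366, above every sorted array. Of 14 SWEET probe sets, a family picked after seeing values, 9 had their highest sorted mean in CLV3n, against 28.7% of all probe sets. Several of these were low or barely apart, such as SWEET7 with 36.4 in CLV3n and 35.0 in FILp cells. SWEET13 and SWEET8 had ratios of 2.48 and 2.06 but failed the minimum of 100, with CLV3n means of 90.4 and 112.

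Genes with known roles in vascular and boundary cells were few. CLE41 (AT3G24770) encodes a peptide made in the phloem that keeps procambial cells dividing. It read 220.3, 111 and 105 in CLV3n cells, against 30.2, 14.9 and 36.1 in CLV3p, 59.1, 66.2 and 48.0 in FILp, and 68.0 and 37.6 in WUSp cells. CLV3n 1 was about level with the Uninduced arrays (206 and 208), and the other CLV3n arrays lay below them; Protoplast_induced read 277 and 283.

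LAS (AT1G55580), a GRAS-family regulator of axillary meristems made in organ boundaries, read 177, 216 and 166 in CLV3n cells. It read 75.8, 98.6 and 67.6 in CLV3p, 75.6, 87.8 and 85.9 in FILp, and 59.9 and 50.8 in WUSp cells. The CLV3n arrays did not overlap with any of these and bracketed the Uninduced values of 195 and 184, while Protoplast_induced read 125 and 133.

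**Figure D2:**
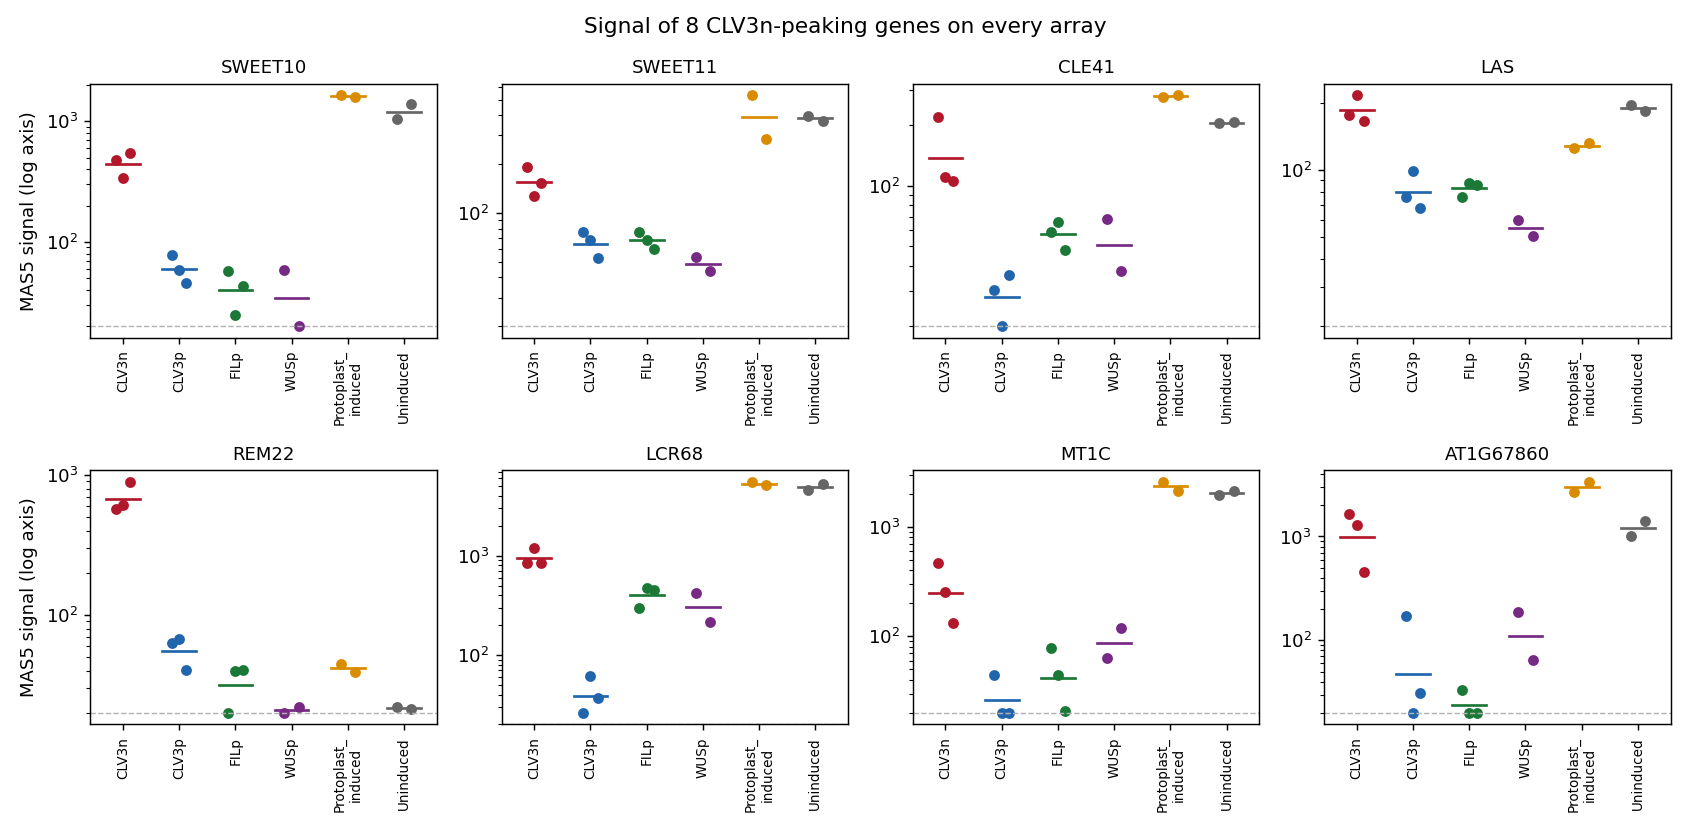
Points are MAS5 signals (log axis) of 8 members on each array, and bars the geometric means of the 6 groups, with signals under 20 drawn at 20 (dashed line). In every panel the CLV3n points lie above all CLV3p, FILp and WUSp points; the unsorted groups lie above CLV3n for SWEET10, SWEET11, LCR68 and MT1C and far below it for REM22.

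Set against 24 lists of marker and pathway genes, 117 of which have a probe set of their own, the members included SWEET11 from the phloem list (2 genes measured), CLE41 from the procambium list (4 measured), LAS from the organ boundary list (2 measured) and SWEET10 from the transport list (10 measured). Most listed genes have no such probe set. The other phloem gene, OPS, averaged 135 in CLV3n cells, against 82.4 in CLV3p, 158 in FILp and 176 in WUSp cells. The other 3 procambium genes, MOL1, CLE44 and LHW, all had their highest sorted mean in FILp cells: MOL1 averaged 699 in CLV3n and 752 in FILp, CLE44 37.2 in CLV3n and 53.2 in FILp, and LHW 1730.4 in CLV3n and 1981 in FILp. The other boundary gene, PTL, averaged 295 in CLV3n and 346 in FILp cells. The other 20 lists held no member among 99 measured genes, including 16 auxin genes and 12 wound, stress and calcium genes; the jasmonate and ethylene list had no measured gene.

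The clearest departure from the unsorted material was REM22 (AT3G17010), which encodes a B3-domain DNA-binding protein of the REM (reproductive meristem) family. It read 573, 611 and 893 in CLV3n cells, against 62.7, 67.1 and 40.6 in CLV3p, 18.7, 40.1 and 40.2 in FILp, and 19.98 and 22.03 in WUSp cells. Its ratio of 12.2 was the second largest of all members. Protoplast_induced read 44.6 and 38.9 and Uninduced 22.2 and 21.3, so that the CLV3n mean was 16.3 and 31.2 times the 2 unsorted means.

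A second member of that family, AT2G16210 (REM24), named after its values were seen, had another pattern. It read 108, 133 and 244 in CLV3n cells, against 56.2, 91.0 and 32.4 in CLV3p, 50.2, 47.4 and 46.1 in FILp, and 51.2 and 54.8 in WUSp cells. Unsorted arrays were higher, at 226 and 331 in Protoplast_induced and 352 and 369 in Uninduced.

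The largest ratio, 19.8, belonged to AT3G53980, to which no role is given here. It read 858, 514 and 401 in CLV3n cells, against 15.7, 5.96 and 46.7 in CLV3p, 11.3, 13.3 and 13.7 in FILp, and 40.3 and 10.3 in WUSp cells. Most of the 8 lower values lay under 20, so the ratio depends on that floor. Protoplast_induced read 691 and 629 and Uninduced 281 and 389.7.

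AT1G67860, AT1G67865 and AT1G67870 are consecutive protein-coding genes in the RefSeq order, and all 3 were members. AT1G67860 read 1646, 1293 and 451 in CLV3n cells, against 171, 2.83 and 31.4 in CLV3p, 33.2, 18.15 and 18.7 in FILp, and 185 and 63.96 in WUSp cells. AT1G67870 read 343, 210.1 and 194 in CLV3n cells, against at most 49.0 in CLV3p, 19.5 in FILp and 82.2 in WUSp cells. AT1G67865 averaged 237 in CLV3n, 58.4 in CLV3p, 35.3 in FILp and 77.6 in WUSp cells. For each of the 3, CLV3n 1 was highest and CLV3n 3 lowest, and whether their probes share sequence was not tested.

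Small cysteine-rich and metal-binding proteins were represented by LCR68 and MT1C, both far higher in unsorted material. LCR68 (AT2G02130), of the low-molecular-weight cysteine-rich family, read 839.8, 1209 and 844 in CLV3n cells, against 26.1, 61.1 and 37.3 in CLV3p, 298, 472 and 454 in FILp, and 426 and 217 in WUSp cells. Protoplast_induced read 5539.5 and 5118 and Uninduced 4599 and 5314, several times every sorted array. MT1C (AT1G07610), a metallothionein that binds metal ions, read 471, 252 and 133 in CLV3n cells, against at most 44.2 in CLV3p, 78.5 in FILp and 119 in WUSp cells, and 2568 and 2129 in Protoplast_induced and 1956 and 2126 in Uninduced. ZIP6 (AT2G30080), of a family of metal ion transporters and named after its values were seen, read 304, 159 and 129 in CLV3n cells, with a ratio of 2.52.

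Proteases included BETA-VPE (AT1G62710), a vacuolar processing enzyme that cleaves proteins in the vacuole. It read 119, 124 and 197 in CLV3n cells, against at most 55.6 in CLV3p, 60.7 in FILp and 45.6 in WUSp cells, and 70.1 and 60.3 in Protoplast_induced and 79.9 and 104 in Uninduced. CP1 (AT4G36880), a cysteine proteinase, had a ratio of 2.78 and a CLV3n mean of 135, close to 140.4 in Protoplast_induced and 134 in Uninduced. The serine carboxypeptidase-like gene scpl46 (AT2G33530) had a ratio of 2.11.

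The brightest members with 1 gene were AT5G47600 and AT5G07030. AT5G47600 read 3502, 3388 and 2857 in CLV3n cells, against 1291, 1729.8 and 572 in CLV3p, 577, 701 and 636 in FILp, and 1540.4 and 1429 in WUSp cells. AT5G07030 read 1739, 1858 and 1536 in CLV3n cells, against 81.8, 80.1 and 58.5 in CLV3p, 714, 620.4 and 572 in FILp, and 640.0 and 398 in WUSp cells. It was 23.5 times higher in CLV3n than in CLV3p cells but 2.70 times higher than in FILp cells, so this gene was low chiefly in CLV3p.

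The 3 other populations were also compared with each other over all members, beside the shares over the 12540. The median ratio of the CLV3n mean was 4.49 over CLV3p, 3.18 over FILp and 3.18 over WUSp. CLV3p was strictly the lowest of the 3 for 34 members (44.7%, against 33.1% of the 12540), and the highest for 16 (21.1%, against 38.3%). FILp was the highest for 35 (46.1%, against 30.2%) and WUSp for 25 (32.9%, against 31.5%). Arrays of FILp all lay above those of CLV3p for 18 members (23.7%, against 19.2%), and the reverse held for 6 (7.89%, against 21.1%). Arrays of WUSp all lay above those of CLV3p for 24 (31.6%, against 25.2%), and the reverse held for 8 (10.5%, against 27.9%). Between the remaining pair, WUSp arrays all lay above FILp arrays for 15 members (19.7%, against 25.1%), and the reverse held for 11 (14.5%, against 28.1%). AT1G28400 was an example of WUSp arrays above those of CLV3p and FILp. It read 221, 285 and 236 in CLV3n cells, at most 3.37 in CLV3p and 6.18 in FILp, and 96.2 and 70.6 in WUSp cells. The rule bounds these values from above, so no test is given. Shares for WUSp as the highest and for FILp arrays above CLV3p arrays were near those of the 12540. Taken in either direction, arrays of each pair stood apart for a smaller share of members than of the 12540.

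GSTU20 (AT1G78370), a tau-class glutathione transferase, was the member nearest the ratio of 2, at 2.01. It read 349, 340.4 and 155 in CLV3n cells, against 16.0, 5.72 and 3.92 in CLV3p, 126, 117 and 154 in FILp, and 133 and 70.6 in WUSp cells. Among probe sets with 1 gene, AT3G44070 followed at 2.02 and scpl46 at 2.11, and just outside were AT2G24040 at 1.98, AT4G32340 at 1.97 and AT1G03660 at 1.95. At the signal minimum, the lowest CLV3n array read 100.4 for AT1G47410, 105 for CLE41 and 107 for AT3G26800, while PWD at 97.9, THI2.1 at 97.6 and AT4G30460 at 95.6 were left out with ratios of 3.24, 2.84 and 2.83.

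Because FILp lay wholly in the low batch and WUSp wholly in the high batch, the ratio was also taken within each. In the high batch, CLV3n 1 and 2 were at least 2 times both CLV3p and WUSp for 70 of the 76 members (2.26% of the 12540), with a median ratio of 3.05. In the low batch, CLV3n 3 alone was at least 2 times both CLV3p and FILp for 64 (1.01%), with a median ratio of 2.67. In all, 58 members passed in both (0.502%). These are the arrays that chose the members, so the counts are largely fixed by the rule and are no independent check. AT3G26800 had a log2 ratio of -0.04 in the low batch, where CLV3n 3 read 107 against 414 and 288 on the other CLV3n arrays, and GSTU20 had 0.24.

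**Figure D3:**
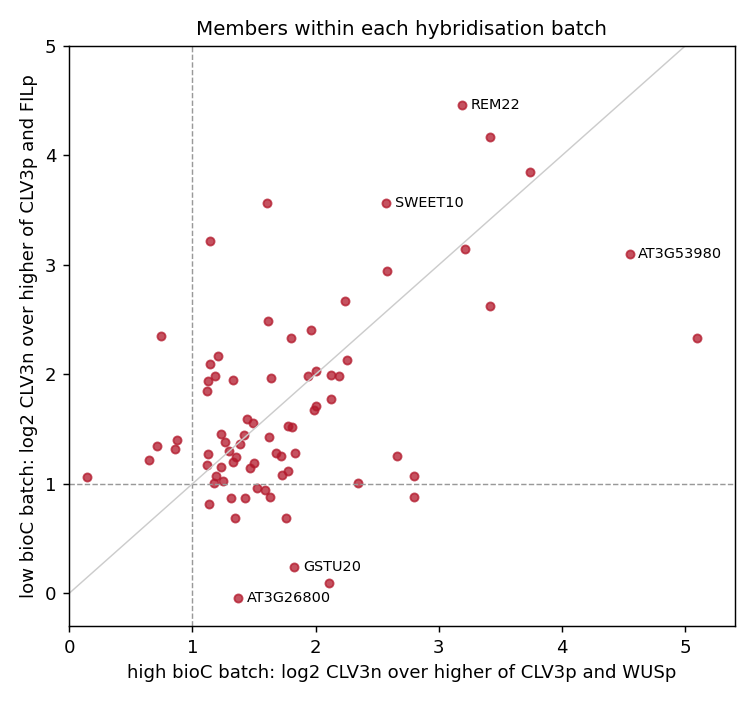
Each of the 76 points is a member, placed by its log2 ratio of CLV3n to the higher of CLV3p and WUSp in the high bioC batch (x) and to the higher of CLV3p and FILp in the low bioC batch (y); dashed lines mark a ratio of 2 and the diagonal equality. Members passed the x line in 70 cases and the y line in 64, and AT3G26800 lies at -0.04 on the y axis.

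The 4 unsorted arrays took no part in choosing the members. Uninduced had a mean at least 2 times each of CLV3p, FILp and WUSp for 54 members (71.1%), against 2.85% of the 12540 probe sets. For Protoplast_induced this held for 53 members (69.7%), against 3.72%. The CLV3p, FILp and WUSp side of this comparison did choose the members for low values, so the excess is a description and has no test. Members averaged a median of 395 in Protoplast_induced and 357 in Uninduced.

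Against CLV3n cells, the members fell into 3 patterns, drawn after seeing the values. Protoplast_induced was at or above the CLV3n mean for 52 members (68.4%, against 49.1%) and Uninduced for 47 (61.8%, against 51.6%). Both unsorted means were at or above the CLV3n mean for 44 members (57.9%, against 40.7% of the 12540), and at least 2 times it for 22 (28.9%, against 4.15%). Both were at 0.5 times the CLV3n mean or less for 11 (14.5%, against 4.11%), and 21 lay between. For 9 members (11.8%, against 60.1%), both unsorted means were no higher than the highest of CLV3p, FILp and WUSp. The sorted side of each of these comparisons chose the members, for high CLV3n or low other values. The 12540 were not chosen that way, so these shares are descriptions and have no test. The 5 genes of the lower pattern were REM22, AT5G57720, AT5G61660, AT1G67640 and AT3G44070. AT5G57720 read 111, 210.3 and 198 in CLV3n cells, against 53.1 and 48.4 in Protoplast_induced and 53.5 and 29.2 in Uninduced. AT3G44070 read 372, 317 and 399 in CLV3n cells, against 60.6 and 46.2 in Protoplast_induced and 57.8 and 67.2 in Uninduced.

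**Figure D4:**
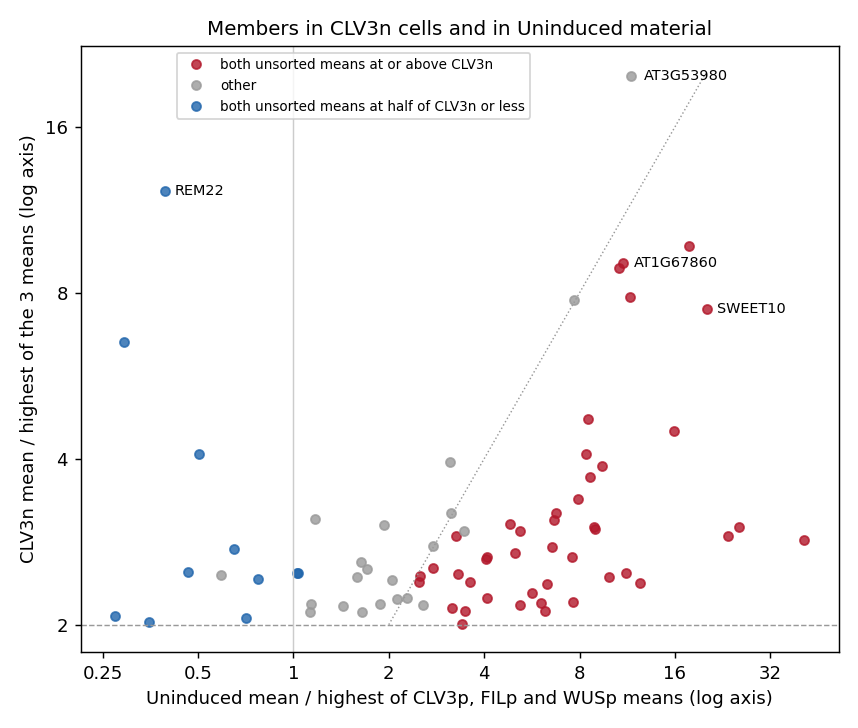
For each of the 76 members, the ratio of the CLV3n mean (y) and of the Uninduced mean (x) to the highest of the CLV3p, FILp and WUSp means is drawn on log axes that share this denominator; the dashed line is the threshold of 2, the vertical line a ratio of 1 and the dotted line equality. The 44 red points have both unsorted means at or above CLV3n and the 11 blue points both at 0.5 times it or less; REM22 stands at 12.2 on the y axis, left of a ratio of 1.

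Protoplast_induced and Uninduced were compared with limma on the 4 arrays. This asks how the members differed between material read here as after and without protoplast preparation. Of 65 members tested, 23 were higher in Protoplast_induced (35.4%, against 10.5% of the 13911 probe sets tested) and 6 were lower (9.23%, against 11.4%) at a Benjamini-Hochberg adjusted p under 0.05. Either way, 21.9% of all tested probe sets were called. The median log2 difference was 0.21 over the tested members and 0.00158 over all tested probe sets; without Protoplast_induced 2 the members' median was 0.43. When all 15 arrays shared 1 fit, only 1 member stayed higher and 0 lower at that threshold. Of all 13911 probe sets tested, that fit called 403 higher and 275 lower, 678 in all. The members' excess of higher calls was thus not seen in the shared fit, although their median log2 difference stayed at 0.21. The shared fit takes its variance from all 15 arrays, including the sorted arrays that chose the members. The members' median log2 SD was 0.34 in CLV3n, 0.54 in CLV3p, 0.32 in FILp and 0.45 in WUSp cells. It was only 0.14 in Protoplast_induced and 0.19 in Uninduced. The loss of calls in the shared fit therefore cannot decide whether the excess holds. At an unadjusted p under 0.05 in that fit, 8 members were higher and 3 lower, with no share over all probe sets given here. The 11 members not tested were too low on these 4 arrays, REM22 among them.

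The 3 neighbouring genes had the largest increases among called members with 1 gene. Among called members without a gene name, 3 rose more than AT1G67860, and another rose by 1.31, more than AT1G67870. A further member without a gene name rose by 1.64 but was not called. AT1G67865 read 1111 and 1243 in Protoplast_induced and 295 and 475 in Uninduced, a log2 difference of 1.65 ± 0.21 (SE, limma adjusted p = 0.0005124). AT1G67860 rose to 2685 and 3349.9 in Protoplast_induced, against 1021 and 1402 in Uninduced (1.33 ± 0.17, limma adjusted p = 0.0004081). AT1G67870 rose to 1023 and 1289 in Protoplast_induced, against 407 and 601 in Uninduced (1.22 ± 0.19, limma adjusted p = 0.001897). In each case the groups did not overlap.

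AT3G12730 also rose, at 391 and 419 in Protoplast_induced, against 144 and 214 in Uninduced (log2 difference 1.21 ± 0.21, limma adjusted p = 0.002136). AT3G53980 rose by 0.99 ± 0.18 (limma adjusted p = 0.002255), AT1G47410 by 0.96 ± 0.25 (limma adjusted p = 0.01881) and AT4G30450 by 0.48 ± 0.12 (limma adjusted p = 0.01393). The 1 gene that fell was AT5G07030, which read 1990.3 and 1941 in Protoplast_induced, against 3138 and 3180.0 in Uninduced (-0.68 ± 0.11, limma adjusted p = 0.0008831). All of these calls were lost when the 15 arrays shared 1 fit. AT1G47410 also lost its call without Protoplast_induced 2 or Uninduced 2, and AT4G30450 without Protoplast_induced 1 or with plain eBayes.

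ZIP6, AT2G38800 and AT2G22620, named after their values were seen, also rose, by 0.82 ± 0.23, 0.77 ± 0.15 and 0.78 ± 0.20 (limma adjusted p = 0.0266, 0.00379 and 0.0169). All 3 calls were lost in the fit of 15 arrays and without Protoplast_induced 1, those of ZIP6 and AT2G22620 also without Protoplast_induced 2, and that of ZIP6 without Uninduced 1 or without the filter.

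The sugar transporter, boundary and peptide genes described above did not pass. SWEET10 differed by 0.43 ± 0.15 (limma adjusted p = 0.05477) and passed without Uninduced 2, LAS by -0.56 ± 0.21 (limma adjusted p = 0.08452; 0.0435 with quantile normalization and 0.0393 with plain eBayes) and CLE41 by 0.44 ± 0.18 (limma adjusted p = 0.1026). SWEET11, MT1C and LCR68 differed by 0.03 ± 0.26, 0.20 ± 0.12 and 0.11 ± 0.10. GSTU20 differed by -0.02 ± 0.59, with arrays of 628 and 309 in Protoplast_induced and 288 and 696 in Uninduced. All 8 tested genes of the wound, stress and calcium list were higher in Protoplast_induced, with a median log2 difference of 4.62. None of that list's 12 measured genes was a member. Summed over those 12 genes, every sorted array read 14298 or more, against at most 597 on the Uninduced arrays. Genes high in every sorted population could hardly pass the rule. Their absence from the members therefore says nothing about the members' own differences.

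**Figure D5:**
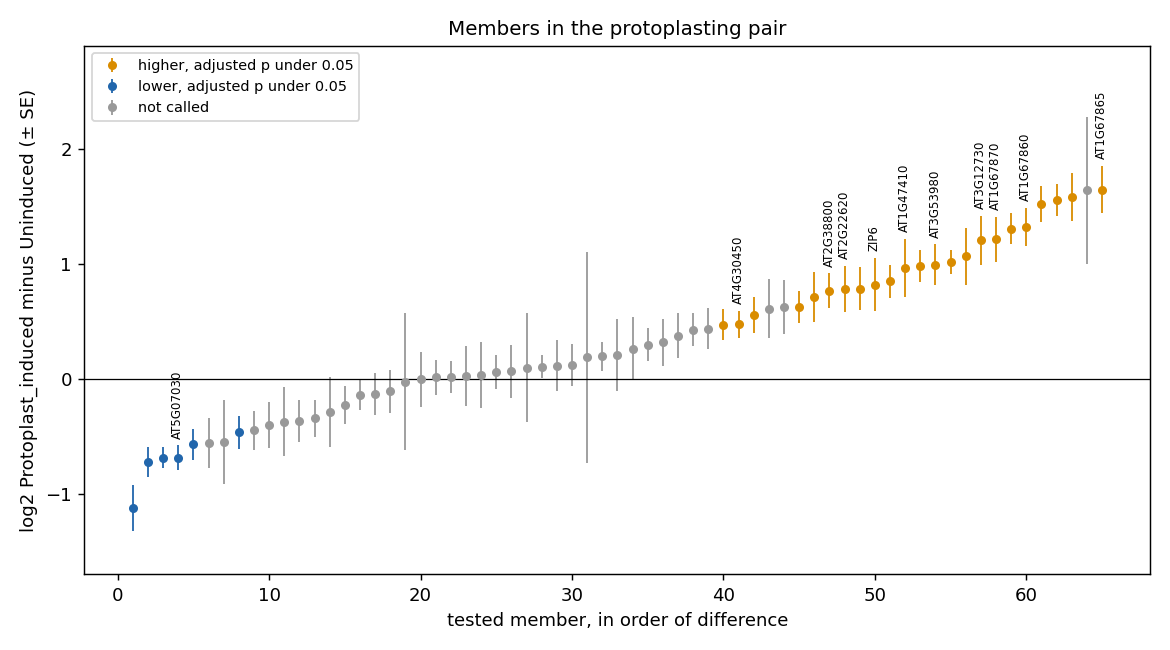
Points are log2 differences of Protoplast_induced minus Uninduced for the 65 tested members in order of size, with bars of 1 SE from limma on 4 arrays; orange and blue mark an adjusted p under 0.05. The 23 orange points reach 1.65 at AT1G67865, the 6 blue points reach -1.12, and 36 points are grey.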

How the data were processed

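The deposited values are MAS5 signals, an intensity on a linear scale, which the authors made with MAS5, per the submitters' processing notes; its version is not given in the sources used here. RNA was isolated with an RNeasy kit and labelled by the standard Affymetrix protocol, per the labels. A trimmed mean, leaving out the lowest and highest 2% of values, was 499.8 on every array, which shows a common scaling, and 64 control probe sets were set aside. The number of arrays limits the precision.

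Members and gene lists were chosen with earlier results of these data known, and comparisons among sorted cells are therefore descriptions. Protoplast_induced and Uninduced were compared on log2 signals with limma 3.58.1 in R 4.3.3 (lmFit, eBayes with trend and robust), two-sided, over probe sets above their array's 40th percentile on at least 2 of 4 arrays. On simulated data with 13735 probe sets tested, 40.8% of 2-fold and 77.6% of 4-fold changes were called, so true changes are missed. The recovery of 4-fold changes fell short of the criterion first set, which was then replaced by criteria on sign, size and false calls. Group signals are geometric means over arrays, with values under 20 raised to 20.

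Named genes have 1 gene per probe set and are the 15 largest ratios, the 5 highest CLV3n means, members of lists and classes, up to 6 called in each direction and 3 on either side of the threshold; fewer are described. Symbols were updated through RefSeq identifiers. Sequences and promoter motifs were not analysed here. Alternatives varied the normalization, floor, filter, variance model, block, batch and arrays left out.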

Additional observations from a re-analysis of the deposited data

How the results depend on the processing

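Leaving the members' rule otherwise as it was, 188 probe sets passed at a ratio of 1.5 and 25 at 3, and 155 passed with a signal minimum of 50 and 33 with 200. Using only the high batch gave 339 probe sets, 70 of them members, and only the low batch 236, 64 of them members; both use fewer arrays and populations. Leaving out 1 array gave 68 to 132 probe sets, with 132 without CLV3n 3, of which 73 were members. Quantile normalization gave 53 (52 members) and centring each array on its median 57 (57 members). Median log2 array medians of CLV3n exceeded those of CLV3p by 0.17 and of WUSp by 0.14.

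For Protoplast_induced minus Uninduced, plain eBayes called 1972 probe sets and the fit of all 15 arrays 678, with 1 member higher and 0 lower; leaving out 1 array gave 1576 to 3331 calls in all (1576 without Protoplast_induced 1 and 1871 without Protoplast_induced 2), 17 to 23 members higher and 5 to 9 lower. The members' median log2 difference was 0.43 with the filter at the 60th percentile, and 0.20 to 0.43 when 1 array was left out. Centring made 34.1% of the calls higher, against 47.9% otherwise. With the replicate number as a block, 3654 probe sets were called, with 25 members higher and 7 lower, and SWEET10 passed; the labels give only a shared number, and deviations of same-numbered arrays correlated at 0.096 across probe sets.

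Of 258 values for 22 genes, 226 kept direction and side of the threshold, 12 lost the call, 4 gained it and 16 changed sign. None of the 6 genes with a change of sign was called. Centring gave -0.066 for AT1G28400, -0.026 for AT3G10080, -0.068 for AT5G47600, -0.016 for CP1 and -0.054 for SWEET11, and quantile normalization -0.072 for CP1 and -0.011 for SWEET11. Leaving out 1 array gave -0.11 to 0.15 for AT1G28400, -0.043 to 0.16 for AT3G10080, -0.23 to 0.26 for AT5G47600, -0.067 to 0.20 for CP1, -0.66 to 0.61 for GSTU20 and -0.42 to 0.48 for SWEET11. The cause was not tested. With 2 arrays a group and many signals of the other populations near 20, ratios against such low values are uncertain.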

Other observations

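Among the stomatal development genes SPCH, MUTE, FMA and STOMAGEN, all 4 had their highest sorted mean in CLV3n cells. Their CLV3n means were only 25.9 to 77.8, under the signal minimum. SPCH and MUTE averaged 26.4 and 25.9 in CLV3n cells, barely over the floor of 20 at which CLV3p, FILp and WUSp stood. The share of all probe sets highest in CLV3n was 28.7%. A further REM gene, AT5G09780 (REM25), averaged 72.0 in CLV3n cells, against 35.2 in CLV3p, 31.2 in FILp and 20 in WUSp cells, while AT4G31615 (REM35) and AT2G35310 (REM23) were highest in CLV3p. LCR69, of the same family as LCR68, averaged 7346 in CLV3n and 8777 in FILp cells.

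The 37 members without a single gene had ratios of 2.06 to 9.74 and CLV3n means up to 3632. Of these, 21 had both unsorted means at or above the CLV3n mean and 6 had both at 0.5 times it or less.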
